A study of Homo sapiens with 24 samples.

Results

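ATAD2 and 6 further genes whose proteins carry a bromodomain, ATAD2B, BRD2, BRD3, BRD7, BRD9 and BPTF, were followed through 24 RNA-seq libraries of HepG2 cells, a human hepatocellular carcinoma line. The members were the rows of the deposited count table that carried one of these 7 symbols, which gave 7 rows of 60683, 1 per symbol. ATAD2 had been picked because it was induced by dexamethasone in all 3 receptor genotypes. Its dexamethasone responses, and its differences between genotypes in level or response, are therefore a description from which nothing is inferred. Where the fit over all genes called a member after dexamethasone, that is stated beside the share of all genes called, and again for other settings.

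In every library the endogenous glucocorticoid receptor gene NR3C1 had been knocked out by CRISPR/Cas9 and a Ty1-tagged receptor put back with a pseudotyped lentivirus, under doxycycline control. The receptor was wild type (WT), K154R, which cannot be acetylated at that lysine, or K154Q, which mimics the acetylated lysine. All cells had received doxycycline for 24 h (0.3 to 1 µg/mL, chosen to bring the receptors to like protein levels) and then 24 h of washout in medium with charcoal-stripped serum. For the last 6 h they were given ethanol as vehicle or the synthetic glucocorticoid dexamethasone at 1 µM. This gave 6 groups of 4 libraries, from 2 experiments with 2 transductions each, so that the cells of a library were a transduced population; the sources used here do not say whether the knockout line was 1 clone. All libraries share the knockout, doxycycline and the HepG2 background, and none lacked a receptor construct.

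A bromodomain is a small helical fold with a pocket that binds acetylated lysines, mostly on histone tails, and so lets a protein recognise acetylated chromatin. ATAD2 and its paralog ATAD2B join such a domain to AAA+ ATPase domains; ATAD2 binds acetylated histone H4 on newly replicated chromatin, is a target of E2F factors and a coactivator of MYC, and is often abundant in tumours, liver carcinoma among them. BRD2 and BRD3 are BET proteins, which hold a pair of bromodomains and help to start and prolong transcription, while BRD7, BRD9 and BPTF are subunits of the remodelling complexes PBAF, non-canonical BAF and NURF. The glucocorticoid receptor itself is a hormone-activated transcription factor that recruits acetyltransferases and remodelling complexes to its target genes.

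Library totals ran from 23863672 to 42072021 counts, and the 7 members had between 473 counts (ATAD2B) and 13522 counts (ATAD2) in a library, so that all 7 passed the filter on low counts. All 10 hepatocyte markers were measured, with a level in CPM (counts scaled to the size of the library) that summed to between 44042 and 57019.5 over the libraries. The 10 markers of blood, endothelial and stromal cells summed to 26.7 to 46.8 CPM, with PTPRC and CD3E at 0 in all libraries, and both ranges overlapped between vehicle and dexamethasone groups; edgeR and DESeq2 called 0 of the markers in any contrast, with AFP alone under an unadjusted edgeR p of 0.05 (WT, dexamethasone, log2 fold change 0.26). FKBP5, a co-chaperone gene and classical receptor target, rose in each genotype (log2 fold change 0.98 to 1.17, edgeR adjusted p of at most 3.34e-06), while NR3C1 transcripts, which do not tell the introduced from the disrupted gene, lay between 69.6 and 113 CPM in all groups. In bulk RNA a change in every cell and a change in part of the cells, like fewer cells of a type and less RNA per cell, cannot be told apart.

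ATAD2 (ENSG00000156802, minus strand of chromosome 8), the ATPase with a bromodomain, was the most abundant of the 7 transcripts per length of gene. In WT vehicle libraries its level was 246, 236, 227 and 205 CPM in replicates 1 to 4, and after dexamethasone 323, 340.5, 310.0 and 299.7 CPM. In K154R cells it was 246, 205, 219 and 187 CPM in vehicle and 334, 313, 301 and 289.5 CPM after dexamethasone. In K154Q cells the values were 236, 213, 233 and 193 CPM and 324, 319, 319 and 294 CPM. Every dexamethasone library lay above every vehicle library, across genotypes as well as within them: the highest vehicle value was 246 CPM and the lowest dexamethasone value 289.5 CPM. The share of all genes that separate so across genotypes was not computed. As ATAD2 was chosen for this rise, nothing is read from the separation.

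**Figure D1:**
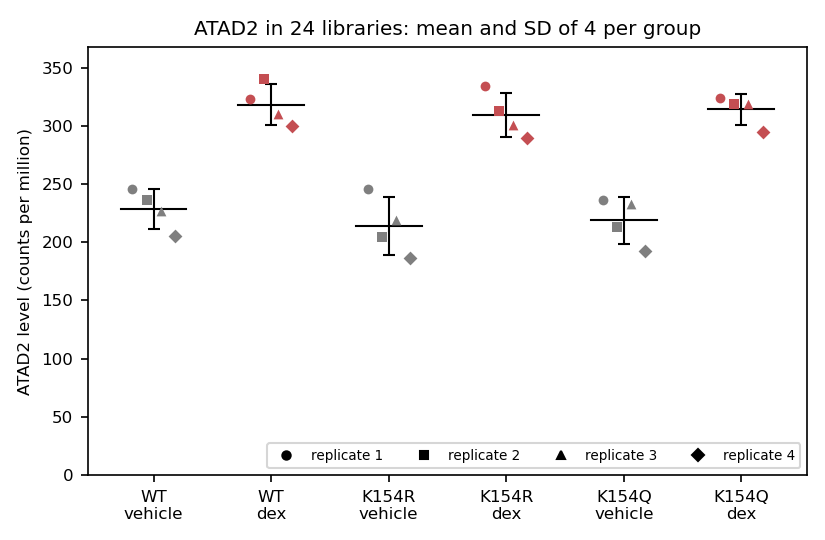
ATAD2 level in CPM (vertical axis, from 0) in the 6 groups; each point is a library, its shape the replicate number, and the bars give the mean and SD of 4 libraries. All 12 dexamethasone libraries sit at or above 289.5 CPM, all 12 vehicle libraries at or below 246 CPM, and replicate 4 (diamond) is the lowest in each group. ATAD2 was chosen for this rise.

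The mean of ATAD2 went from 229 ± 17.3 to 318 ± 17.6 CPM (SD, n = 4) in WT, from 214 ± 24.9 to 309 ± 19.1 CPM in K154R and from 219 ± 20.3 to 314 ± 13.3 CPM in K154Q. The log2 fold change was 0.48 (SE 0.084), 0.53 (SE 0.084) and 0.52 (SE 0.084), an increase of 39.2%, 44.5% and 43.6%. By group mean the order was WT, K154Q and K154R after dexamethasone, followed by the same order in vehicle. Neighbours within a treatment overlapped and did not differ beyond their spread, and the gap in the order lay between the treatments. The processed pseudogene IMPDH1P6 on the opposite strand overlaps 6.08% of the exon bases of ATAD2 in GENCODE 29, with 149 counts over all libraries against 203506 of ATAD2. Leaving out any 1 library of the genotype kept the fold change at 0.44 to 0.53 in WT, 0.47 to 0.60 in K154R and 0.47 to 0.56 in K154Q.

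ATAD2 was the 1 member of 7 that passed an adjusted p under 0.05 in edgeR's quasi-likelihood fit over all genes in each genotype, where 0.161% of the 16196 tested genes passed as higher in WT, 0.309% in K154R and 0.130% in K154Q. Since ATAD2 was chosen on this contrast, nothing is read from that count. In K154R the 50 genes called over the whole table became 23 without dexamethasone replicate 4 and 67 without dexamethasone replicate 3. With the replicate number as a block the member called was again ATAD2, where the shares of genes passing as higher were 0.753%, 1.17% and 0.704%. When only the 8 libraries of a genotype were fitted, 0 members passed in any of the 3, with the fold change of ATAD2 at 0.48, 0.53 and 0.52. Complete separation of the 4 dexamethasone from the 4 vehicle libraries, with dexamethasone above, was seen in 1.41% of genes in WT, 1.33% in K154R and 1.27% in K154Q, and of the members only in ATAD2.

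ATAD2B (ENSG00000119778, chromosome 2), the paralog with the same domain plan, was the least abundant member and did not follow ATAD2. Its level was 27.3, 26.4, 25.6 and 19.7 CPM in WT vehicle and 24.9, 24.3, 22.4 and 23.5 CPM in WT dexamethasone libraries. In K154R it was 28.8, 19.3, 22.2 and 19.8 CPM and 27.1, 23.5, 19.2 and 19.5 CPM, and in K154Q 28.8, 23.7, 26.2 and 19.5 CPM and 30.1, 24.8, 23.5 and 19.9 CPM, with the groups overlapping in each genotype. The log2 fold change was -0.058 (SE 0.14) in WT, -0.016 (SE 0.14) in K154R and -0.0014 (SE 0.14) in K154Q. Per length of gene, the ratio of ATAD2 to ATAD2B within a library was 13.8 ± 1.10 (SD, n = 4) in WT vehicle and 19.8 ± 0.900 after dexamethasone, 14.2 ± 1.28 and 20.8 ± 2.21 in K154R, and 13.3 ± 1.01 and 19.2 ± 2.51 in K154Q. The lowest ratio after dexamethasone (15.9, in K154Q) narrowly exceeded the highest in vehicle (15.7, in K154R). The ratio carries the rise for which ATAD2 was chosen, so nothing is read from this separation. No share for other gene pairs was computed.

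The BET genes BRD2 and BRD3 kept levels that overlapped between the treatments. BRD2 (ENSG00000204256, chromosome 6) had group means of 119 to 123 CPM and all 24 libraries between 107 and 135 CPM. After dexamethasone its log2 fold change in WT was -0.011, with 0.015 in K154R cells and 0.013 in K154Q cells (SE 0.077 each). BRD3 (ENSG00000169925, chromosome 9) had 55.2 ± 3.49 and 53.4 ± 7.33 CPM in WT, 50.8 ± 7.89 and 54.7 ± 6.82 CPM in K154R and 55.02 ± 5.64 and 59.9 ± 4.32 CPM in K154Q. Its log2 fold change was -0.048 (SE 0.11), 0.11 (SE 0.11) and 0.12 (SE 0.11). Exons of BRD3OS on the opposite strand cover 18.6% of the exon bases of BRD3 in GENCODE 29. As no source used here states the strand setting of the counting, reads in the shared bases may be mixed or left out. BRD3OS had 6852 counts over all libraries and BRD3 41778.

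BRD7, the PBAF subunit, had the most negative fitted change after dexamethasone among the members. In WT its level was 106, 102, 95.9 and 104 CPM in vehicle and 100.0, 102, 98.3 and 91.2 CPM after dexamethasone. In K154R it was 105, 106, 101 and 104 CPM and 98.1, 91.2, 101 and 97.0 CPM, the 1 case among these 6 genes in which the 4 dexamethasone libraries did not overlap the 4 vehicle libraries. The gap was narrow, with the highest dexamethasone library at 100.7 CPM and the lowest vehicle library at 100.8 CPM. In K154Q it was 109.9, 99.9, 103 and 111 CPM and 104, 99.6, 98.9 and 106 CPM, with overlap. The log2 fold change was -0.060 (SE 0.058) in WT, -0.11 (SE 0.058) in K154R and -0.055 (SE 0.058) in K154Q. A separation of this kind, with dexamethasone below, was seen in 0.630% of tested genes in K154R (0.617% in WT and 0.574% in K154Q). Between libraries of the same replicate number BRD7 was lower after dexamethasone in 10 of 12 pairs. The share of all genes that reach this was not computed, and in WT same-numbered libraries did not all deviate together. With the replicate number as a block its log2 fold change in K154R was -0.11 (edgeR unadjusted p = 0.0426, adjusted p = 0.597). The share of all genes at such an unadjusted p with the block was not computed. BRD7 (ENSG00000166164) lies on chromosome 16 (GRCh38, chr16:50313487-50368934, minus strand in GENCODE 29), and exons of ADCY7 on the other strand cover 42.3% of its exon bases. As for BRD3, reads in the shared bases may be mixed or left out. ADCY7 had 3831 counts over all libraries against 77332 of BRD7.

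BRD9 (ENSG00000028310, chromosome 5), the subunit of non-canonical BAF, had group means of 38.4 to 42.0 CPM and log2 fold changes of 0.0098 in WT, 0.11 in K154R and -0.023 in K154Q (SE 0.11 each). Exons of TRIP13 on the opposite strand cover 1.9% of its exon bases, with 47869 counts against 31110 of BRD9, and those of ZDHHC11 on the same strand cover 2.32%, with 2120 counts. BPTF (ENSG00000171634, chromosome 17), the large subunit of NURF that also reads methylated histone H3, had group means of 113 to 129 CPM and log2 fold changes of -0.016 (SE 0.13), 0.0062 (SE 0.14) and 0.10 (SE 0.13). Relative to its level BPTF also spread widely within a group, from 94.3 to 150.3 CPM in K154R vehicle. Over the 6 members other than ATAD2 and the 3 genotypes, the 18 log2 fold changes lay between -0.11 and 0.12. Their 95% intervals ended at -0.36 and 0.38, or 0.781-fold and 1.30-fold. In 11 of the 18 the sign changed with the library left out.

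**Figure D2:**
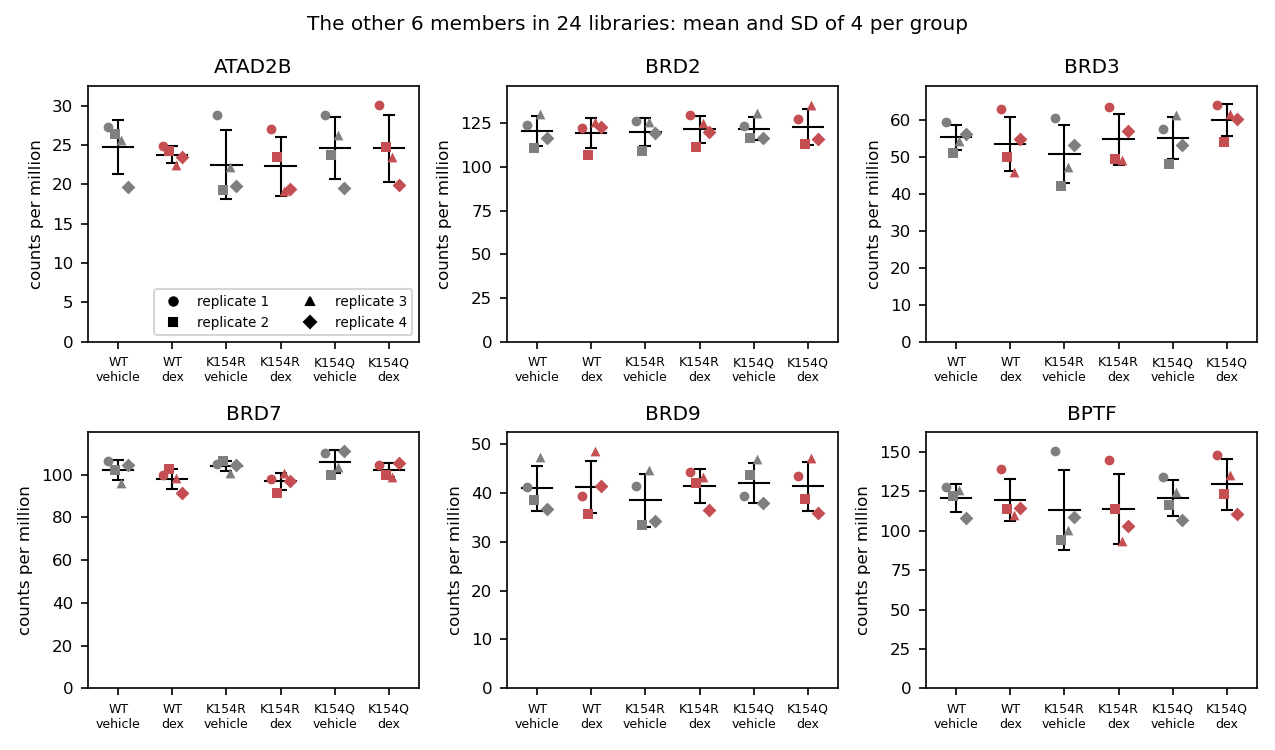
Levels in CPM (vertical axes, each from 0) of the 6 members other than ATAD2 in the 6 groups; points are libraries, shapes are replicate numbers, and bars give the mean and SD of 4 libraries. Vehicle (grey) and dexamethasone (red) overlap in every panel and genotype except BRD7 in K154R, and replicate 1 (circle) is the highest in all groups for ATAD2B and BPTF.

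**Figure D3:**
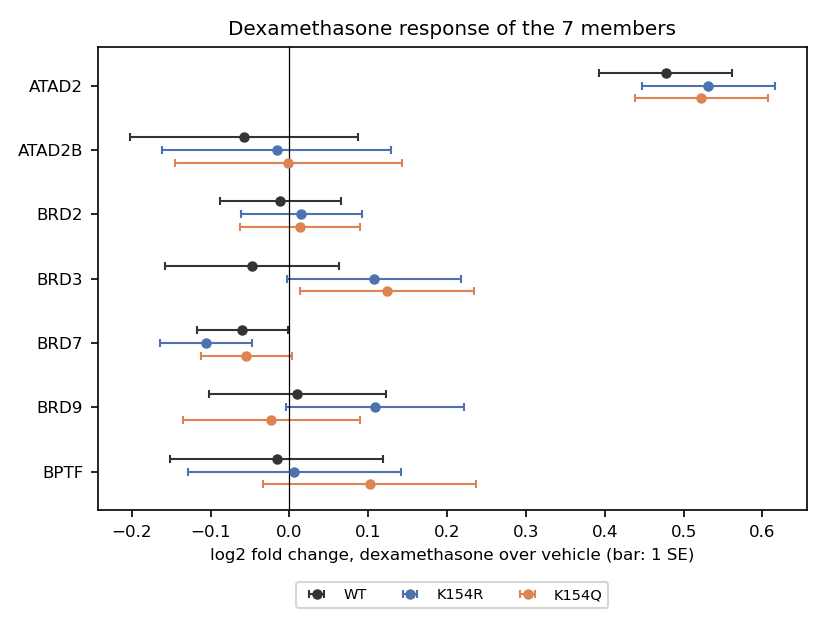
Fitted log2 fold change of dexamethasone over vehicle (horizontal axis) for the 7 members in the 3 genotypes, with 1 SE from 4 libraries a group. ATAD2 lies at 0.48 to 0.53 in all genotypes, and the other 6 between -0.11 and 0.12.

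The receptor variants were compared in vehicle, after dexamethasone and in the size of the response. In vehicle, ATAD2 differed from WT by -0.095 on the log2 scale in K154R (95% interval -0.27 to 0.079) and by -0.064 in K154Q (-0.24 to 0.11). Neither passed the test (edgeR adjusted p of 1.0 each, unadjusted p of 0.271 and 0.455, n = 4 libraries a group). With the replicate number as a block the SE of these differences was 0.053 in place of 0.084, so that the intervals above are the wider ones, and neither was called. After dexamethasone it differed by -0.041 (-0.21 to 0.13) and -0.019 (-0.19 to 0.15). The response of ATAD2 in K154R minus that in WT was 0.054 (-0.19 to 0.30), in K154Q minus WT 0.045 (-0.20 to 0.29) and in K154Q minus K154R -0.0092 (-0.25 to 0.24). All these values of ATAD2 rest on libraries through which it was chosen, the vehicle ones included, and induction in every genotype was what it was chosen for. The last 5 are given with no test, and nothing is read from the test in vehicle. None of them shows a difference or its absence. The comparisons of K154R and of K154Q with WT share the WT libraries.

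Of the other members, BRD3 stood the farthest from 0 in the differences of responses from WT, at 0.16 in K154R (unadjusted p = 0.331) and 0.17 in K154Q (unadjusted p = 0.283), with an edgeR adjusted p of 1.0 for both and n = 4. In vehicle the 12 differences of the 6 genes from WT lay between -0.13 (ATAD2B in K154R) and 0.054 (BRD7 in K154Q), with interval ends of -0.43 and 0.29. After dexamethasone they lay between -0.092 (ATAD2B in K154R) and 0.17 (BRD3 in K154Q), and the differences of responses between -0.13 (BRD9, K154Q minus K154R) and 0.17. Of the 7 members, with ATAD2 counted as a description throughout, 0 were called in each of these 7 contrasts by edgeR or DESeq2. In edgeR without a block 0 had an unadjusted p under 0.05, and 0 separated completely between genotypes. An unadjusted p under 0.05 was reached by 1.36%, 1.02%, 1.56% and 1.50% of all tested genes in the level contrasts (K154R and K154Q in vehicle, then after dexamethasone) and 0.710%, 0.895% and 0.611% in the response contrasts (K154R minus WT, K154Q minus WT, K154Q minus K154R). Over all tested genes edgeR called 0% in each of these contrasts, and the 4 libraries of K154R lay all above those of WT in vehicle in 0.562% of genes and all below in 0.420%, with 0.506% and 0.463% for K154Q. After dexamethasone these shares were 0.469% and 0.494% for K154R, and 0.488% and 0.543% for K154Q. A block for the replicate number also gave 0 calls among the members in each. Over all tested genes that fit called 0.0247% and 0.0247% in vehicle, 0.0123% and 0.0309% after dexamethasone (K154R, then K154Q) and 0% for the responses. With the block 1 value had an unadjusted p under 0.05, that of BRD3 in K154Q against WT after dexamethasone (log2 difference 0.17, edgeR adjusted p = 0.588). The share of all genes under that unadjusted p with the block was not computed, so nothing is read from it.

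**Figure D4:**
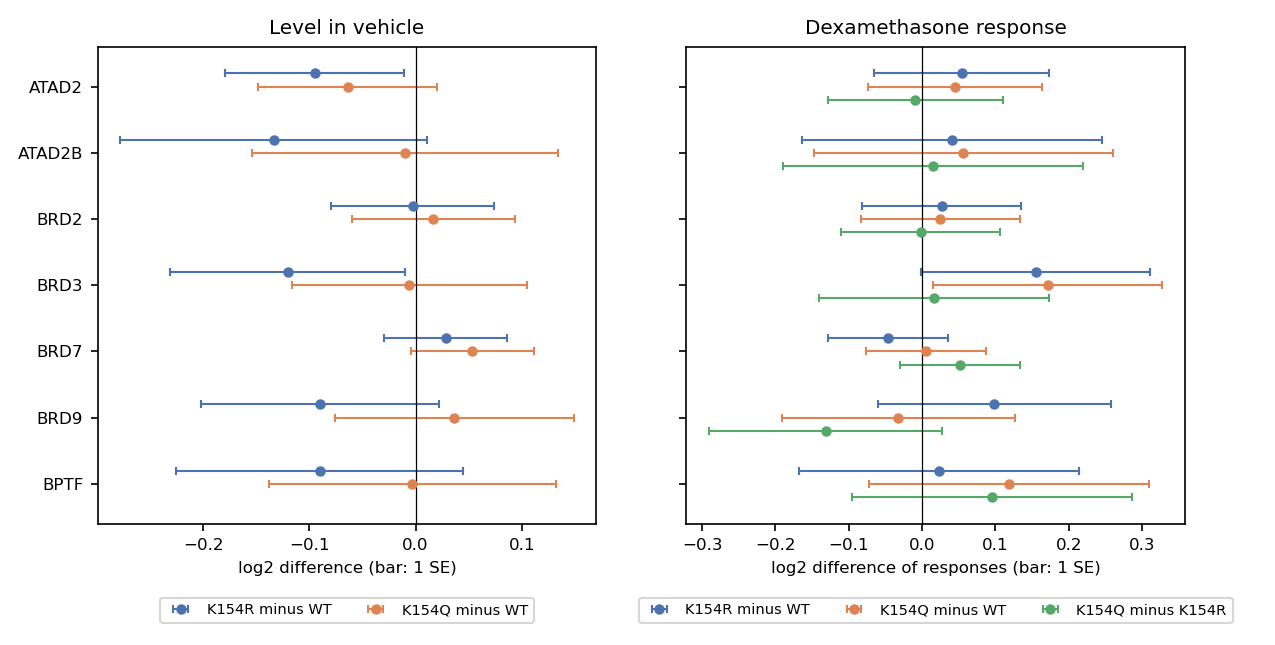
Fitted log2 differences between genotypes for the 7 members, in vehicle (left) and for the dexamethasone response (right), each with 1 SE. The differences lie between -0.13 and 0.054 in vehicle and between -0.13 and 0.17 for the responses.

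Levels of the members were set against each other as RPKM, the CPM divided by the deposited gene length in kilobases. Medians over the 24 libraries were 37.7 for ATAD2, 16.5 for BRD2, 11.9 for BRD7, 7.92 for BRD3, 7.65 for BPTF, 4.32 for BRD9 and 2.25 RPKM for ATAD2B. ATAD2 thus stood at percentile 93.7 of the tested genes and ATAD2B at 44.4. Each member exceeded the next in 24 of 24 libraries except BRD3, which exceeded BPTF in 11 of 24 (ratio 0.884 to 1.21), so these neighbours did not differ beyond their spread. The smallest gap among the others was between BRD2 and BRD7, with a ratio of 1.18 to 1.57. Deposited lengths count every annotated exon, whether or not the cells use it. Opposite-strand genes cover 42.3% of the exon bases of BRD7 and 18.6% of those of BRD3. How reads there were counted is not stated, so the places of BRD7 and BRD3 in this order are uncertain.

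Libraries of the same replicate number resembled each other in several members. ATAD2 was lowest in replicate 4 in 6 of 6 groups and highest in replicate 1 in 5 of 6. ATAD2B and BPTF were highest in replicate 1 in 6 of 6 groups. BRD9 was highest in replicate 3 in 5 of 6 groups, and BRD2 was lowest in replicate 2 in 5 of 6. BRD7 had no such pattern, with each number highest in at most 2 of 6 groups and lowest in at most 3 of 6. The share of all genes with such patterns was not computed. Same-numbered libraries also deviated together over all tested genes in several contrasts. Whether the patterns are particular to these members was not tested. Taking dexamethasone minus vehicle between libraries of the same number, the log2 difference of ATAD2 was 0.39, 0.53, 0.45 and 0.55 for replicates 1 to 4 in WT, 0.44, 0.61, 0.46 and 0.63 in K154R and 0.45, 0.58, 0.45 and 0.61 in K154Q. In each genotype the differences of replicates 2 and 4 exceeded those of replicates 1 and 3, a pattern noticed after the values were seen and not tested. For FKBP5 replicates 2 and 4 likewise exceeded 1 and 3, with 0.89, 1.05, 0.85 and 1.10 in WT, 0.88, 1.29, 0.99 and 1.54 in K154R and 0.77, 1.09, 0.91 and 1.39 in K154Q. How the numbers map to the experiments and transductions is stated in no source used here.

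**Figure D5:**
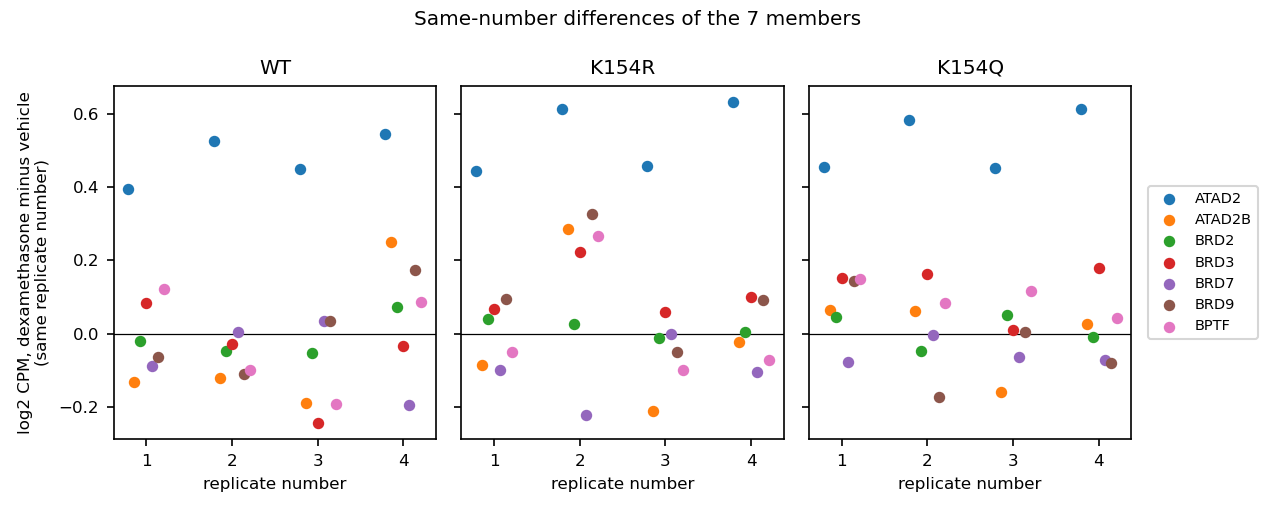
Difference in log2 CPM between the dexamethasone and the vehicle library of the same replicate number (vertical axis) for the 7 members in each genotype; each point is 1 pair of libraries. All 12 points of ATAD2 lie between 0.39 and 0.63, those of replicates 2 and 4 above those of 1 and 3, and the points of the other members lie on both sides of 0.

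The wider set of acetyl-lysine readers was examined as lists. Of 35 other bromodomain genes 31 were tested, and 0 passed as higher or lower after dexamethasone in any genotype. In WT their median log2 fold change was -0.028, in K154R -0.012 and in K154Q 0.035, beside -0.0097, -0.0051 and -0.0024 over all tested genes. BRD1, a scaffold of histone acetyltransferase complexes, had log2 fold changes of -0.051, -0.030 and 0.013 in WT, K154R and K154Q (SE 0.11 each), and BRD8, a subunit of the NuA4 acetyltransferase complex, -0.021, -0.089 and -0.040 (SE 0.082 each). BRDT, the testis-specific BET gene, had 1 count over all libraries and was not tested. Of 10 readers with a YEATS or double PHD finger domain all were tested and 0 passed, with medians of -0.011, -0.0089 and 0.065.

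Partners of the members in their complexes did not pass the test either. Of 22 subunits of PBAF, BAF and NURF, 4 of which also stand in the lists above, 0 were called in any genotype, with median log2 fold changes of -0.057 in WT, -0.037 in K154R and -0.0024 in K154Q. The list's widest values, 0.40 in K154R and -0.77 in K154Q, came from BAP18 (named C17orf49 in the table), which had 203 counts over all libraries and overlaps a readthrough gene, so its values are uncertain. E2F and replication genes, many of them E2F targets like ATAD2, had 0 of 25 members called in each genotype. Their medians were -0.087 in WT, -0.026 in K154R and -0.021 in K154Q, beside -0.0097, -0.0051 and -0.0024 over all tested genes. Negative values numbered 22 of 25 in WT, 19 in K154R and 17 in K154Q. The share of negative values over all tested genes was not computed. The summed level of the list was 3694 to 4295 CPM in vehicle and 3538 to 4189 CPM in dexamethasone libraries. ATAD2, at 0.48 to 0.53, lay above the highest value of this list in each genotype (0.053, 0.10 and 0.28). It was chosen for that rise, so nothing is read from its place above the list. In all 10 contrasts these 4 lists had 0 members called by edgeR and 0 by DESeq2. At an unadjusted p under 0.05 in edgeR they had 1, the helicase subunit MCM2 in WT cells after dexamethasone (log2 fold change -0.20), named after its value was seen. Over all tested genes the share at that threshold after dexamethasone was 3.22% in WT, 3.19% for K154R and 2.26% for K154Q.

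Genes with a profile like that of ATAD2 were sought by the root mean square distance between log2 CPM profiles over the 24 libraries, each centred on its own mean. Among 10212 genes with a symbol and a mean of at least 5 CPM these were ANKS1A, an adaptor protein gene, TBC1D2B, GRK3, a kinase of G protein-coupled receptors, DOCK4, an activator of Rac, LANCL1 and PARP14, an ADP-ribosyltransferase, at distances of 0.10 to 0.13 log2 units. A flat profile would lie 0.28 from ATAD2. Their log2 fold changes after dexamethasone were 0.28 to 0.41 in WT, 0.31 to 0.49 in K154R and 0.33 to 0.50 in K154Q, smaller than those of ATAD2 in each genotype. The other 6 members ranked between 1592 (BRD3) and 5315 (BRD7) of 10212, at 0.27 to 0.32, about as far as a flat profile. The profile searched for holds the rise for which ATAD2 was chosen, so nothing is read from these responses, distances or ranks. When the mean of each replicate number was removed first, 2 of the 6 genes stayed among the nearest 6 (ANKS1A and TBC1D2B).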

How the data were processed

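Poly(A) RNA of 24 cultures was sequenced from libraries of a directional kit, per the labels' protocols. The file deposited by the authors holds unnormalized counts for each gene, with its length. The submitters' processing notes name cutadapt 3.7, STAR 2.7.6a, featureCounts 2.0.3 and GRCh38.p13; no source used here states the strand setting, the treatment of multi-mapping reads or the annotation release. Positions and exon overlaps are from GENCODE 29 (GRCh38), and no sequence is printed.

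Groups and replicate numbers came from the sample titles. With edgeR 4.0.16 (R 4.3.3), filterByExpr kept 16196 of 60683 genes, which were scaled by TMM and fitted with 1 mean per group over all 24 libraries (quasi-likelihood test, Benjamini-Hochberg adjustment over all tested genes, threshold 0.05). Each SE was taken as the size of the log2 fold change over the square root of its F. CPM are counts per 1e6 of the TMM-scaled library total, and log2 CPM used a prior count of 2. Named genes were the 7 members, list genes called in any contrast (there were none), BRD1, BRD8 and BRDT, the 6 genes most like ATAD2, FKBP5 and NR3C1; PTPRC, CD3E, BAP18, AFP and MCM2 were named after their values were seen, and 1 gene of the rule is not reported here. Members and lists were chosen with earlier results of these data known. The labels call the 4 libraries biological replicates, and each pair within a group differed by more than sampling noise (chi-square per degree of freedom at least 12.6).

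Same-numbered libraries deviated together (every pair's r over 0.1) in the dexamethasone contrasts of K154R (lowest r 0.264) and K154Q (0.381), in both vehicle contrasts (0.310 and 0.306) and in K154Q minus K154R responses (0.183) but not in the others, where r is the correlation between their deviations from the means of their groups. Alternatives were RLE scaling, no filter, DESeq2 1.42.0, the replicate block, the groups of a contrast alone, and each library left out.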

Additional observations from a re-analysis of the deposited data

Results flagged for a closer look

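ATAD2 in K154Q dexamethasone replicate 4 lay apart from the other libraries of its group: 294 CPM against 318.9 to 323.9 CPM in the other 3, a gap of 0.836 of the group's whole range on the log2 scale, above Dixon's 95% limit for 4 libraries. It was the only one marked among 42 groups of 4 libraries examined for the members, and chance alone marks about 1 in 20. The value still exceeded every vehicle library.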

How the results depend on the processing

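The log2 change of ATAD2 after dexamethasone stayed positive in all 3 genotypes under every setting tried. It was the member called in each, except when only the groups of a contrast were fitted: then 0 members were called in WT, K154R or K154Q in place of 1, with adjusted p of 0.0910, 0.0824 and 0.0514. The cause was not tested. With each library left out the number called stayed at 1. As ATAD2 was chosen on this contrast, nothing is read from these calls. In the 7 contrasts between genotypes 0 members were called under all settings. Differences close to 0 changed sign. For BRD2, K154R against WT in vehicle went from -0.0028 to 0.0024 with RLE scaling, 0.00028 without a filter and 0.0025 with DESeq2. For BRD9, K154Q against WT after dexamethasone went from 0.0039 to -0.0024 with RLE scaling and with DESeq2. Without a filter, the response of K154Q minus K154R was 0.0060 for ATAD2 and 0.011 for BRD2. With the groups of the contrast alone, BPTF in K154Q vehicle was 0.0013 and BRD7 in the response of K154Q minus WT -0.00069, and with DESeq2 the latter was -0.00066.

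With the replicate number as a block, the changes of ATAD2 were 0.48, 0.53 and 0.53, and the block changed no call of a member. It moved the calls over all genes from 26, 50 and 21 to 128, 200 and 117 in WT, K154R and K154Q. Without a filter these were 78, 109 and 72, with DESeq2 55, 77 and 47, and with the groups of the contrast alone 16, 24 and 12. Between genotypes they were 0, against 4, 4, 2 and 5 with the block (K154R and K154Q in vehicle, then after dexamethasone) and 15, 14, 8 and 18 without a filter; DESeq2 and the groups of the contrast alone each gave 1, in K154Q after dexamethasone. Removing the mean of each replicate number kept 2 of the 6 genes most like ATAD2.

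Over all genes, leaving out 1 library moved the calls after dexamethasone to 19 to 30 in WT, 23 to 67 in K154R and 15 to 28 in K154Q. Among the 18 dexamethasone responses of the 6 members other than ATAD2, 11 took both signs: in WT -0.14 to 0.0085 for ATAD2B, -0.093 to 0.028 for BPTF, -0.047 to 0.051 for BRD2, -0.13 to 0.021 for BRD3 and -0.073 to 0.11 for BRD9, in K154R -0.12 to 0.13 for ATAD2B, -0.13 to 0.17 for BPTF and -0.028 to 0.053 for BRD2, and in K154Q -0.11 to 0.091 for ATAD2B, -0.033 to 0.060 for BRD2 and -0.089 to 0.043 for BRD9. Leaving out 1 library at a time reversed 30 of the differences between genotypes at least once. For K154R against WT in vehicle the values ran from -0.039 to 0.050 for BRD2. For K154Q against WT in vehicle the values ran from -0.11 to 0.087 for ATAD2B, -0.060 to 0.052 for BPTF, -0.022 to 0.061 for BRD2, -0.063 to 0.054 for BRD3 and -0.025 to 0.12 for BRD9. For K154R against WT after dexamethasone the values ran from -0.20 to 0.016 for BPTF, -0.025 to 0.064 for BRD2, -0.040 to 0.12 for BRD3, -0.057 to 0.011 for BRD7 and -0.055 to 0.097 for BRD9. For K154Q against WT after dexamethasone the values ran from -0.055 to 0.010 for ATAD2, -0.067 to 0.12 for ATAD2B, -0.022 to 0.070 for BRD2 and -0.080 to 0.088 for BRD9. For the response of K154R minus WT the values ran from -0.0067 to 0.11 for ATAD2, -0.065 to 0.17 for ATAD2B, -0.12 to 0.17 for BPTF, -0.038 to 0.065 for BRD2 and -0.0032 to 0.18 for BRD9. For the response of K154Q minus WT the values ran from -0.027 to 0.086 for ATAD2, -0.060 to 0.15 for ATAD2B, -0.039 to 0.059 for BRD2, -0.036 to 0.020 for BRD7 and -0.13 to 0.049 for BRD9. For the response of K154Q minus K154R the values ran from -0.079 to 0.046 for ATAD2, -0.12 to 0.12 for ATAD2B, -0.067 to 0.23 for BPTF, -0.046 to 0.047 for BRD2 and -0.076 to 0.095 for BRD3.

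With 4 libraries a group, SEs of 0.058 to 0.15 for levels and responses, and of 0.082 to 0.20 for differences of responses, limited what could be seen in the other 6 members.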
